A study of Mus musculus with 6 samples.

Results

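Voltage-gated sodium channel transcripts were followed in cultured cortical neurons of CD1 mice, an outbred stock. The genes examined were 8 named subunits, 5 that form the channel pore (Scn1a, Scn2a, Scn3a, Scn8a and Scn9a) and 3 auxiliary beta subunits (Scn2b, Scn3b and Scn4b). They were found by gene symbol through their Ensembl identifiers, and all 8 were present among the 54232 genes of the count files. The 3 groups were PA + PS2, PA and control, with 2 RNA-seq libraries each, numbered repeat 1 and repeat 2. The names of the libraries hold IKVAV with PEDOT-S for PA + PS2, IKVAV for PA and PDL for the control. IKVAV is a peptide sequence from laminin and PEDOT a conducting polymer, and the study set out to ask how such scaffolds bear on the maturation of neurons. All 6 libraries are labelled wildtype, and all 6, the control included, carry the same treatment label, peptide amphiphile. The labels used here state no age, time in culture or dose. They also leave unsaid whether a repeat was its own culture or animal, so each p-value reflects the spread between libraries, which may be technical.

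The pore-forming alpha subunits open on depolarization and carry the sodium current of the action potential upstroke. Beta subunits span the membrane once, carry an immunoglobulin-like domain, and alter gating and cell adhesion. In rodent brain Scn3a is the predominantly embryonic and early postnatal alpha gene, while Scn1a and Scn8a gain weight as neurons mature and Scn2a is abundant at both stages. Scn9a is best known from peripheral sensory neurons, and Scn4b from neurons that fire at high rates.

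The alpha genes are close relatives, and 4 of them lie together on chromosome 2. On GRCm38, Scn3a spans chr2:65457118-65567627 on the minus strand, Scn2a chr2:65620771-65767447 on the plus strand, Scn1a chr2:66270778-66440840 on the minus strand and Scn9a chr2:66480080-66634962 on the minus strand. Scn8a lies apart, at chr15:100869858-101045938 on the plus strand. The beta genes are all on the plus strand of chromosome 9, Scn3b at chr9:40269217-40291618, Scn2b at chr9:45117782-45130070 and Scn4b at chr9:45138395-45154152. The likeness of the alpha genes bears on how far short reads can tell their transcripts apart. Over the GENCODE M21 transcripts of each gene, the share of 50-base windows found unchanged in another of the 8 genes was 6.49% for Scn3a, 5.62% for Scn2a, 4.04% for Scn9a, 4.03% for Scn1a and 0.0374% for Scn8a. No beta gene shared such a window with another of the 8 genes. Counting genes outside the 8 as well, the share was 5.76% for Scn2a, 4.16% for Scn9a and 1.01% for Scn2b. Scn9a also shares 180 exon bases with the antisense gene Gm13629, which held 2 to 5 counts a library. How reads were assigned to strands is not stated, and that stretch of Scn9a is uncertain.

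The libraries held 30714311 to 33923681 counts. A level of 1 CPM (1 count per 1e6 counts in a library) thus stands for 30.7 to 33.9 counts before scaling. CPM values here were also scaled by edgeR's TMM factors, which were 0.990 to 1.009. Mitochondrial genes took 1.20% to 1.94% of counts. Pan-neuronal marker genes were present in every library: the 11 markers together were at 6197 and 6698 CPM (lowest and highest library) with PA + PS2, 6498 and 6726 CPM with PA, and 6458 and 6875 CPM in the control. The leading principal component (33.5% of the variance) parted repeat 1 from repeat 2 in every group, and the next (29.5%) was positive in both PA + PS2 libraries and negative in the other 4. Differences are therefore also given within each repeat.

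Set against transcript length, beta subunit Scn3b and alpha subunit Scn2a led the family. Dividing CPM by the summed exon length, the level of Scn3b was 34.0 to 44.9 CPM per kb over the 6 libraries and that of Scn2a 17.9 to 21.0 CPM per kb. The embryonic-type alpha Scn3a followed at 9.35 to 10.8 CPM per kb. None of these ranges overlapped with its neighbour. Scn8a, the alpha subunit of mature axon initial segments and nodes, was at 6.86 to 8.79 CPM per kb, and Scn2b, a beta subunit that binds alpha subunits through a disulfide bond, at 5.46 to 7.37 CPM per kb. Scn1a, the alpha subunit prominent in fast-spiking interneurons, was at 3.23 to 5.63 CPM per kb. The ranges of Scn8a and Scn2b overlapped, as did those of Scn2b and Scn1a, though each pair kept its order in all 6 libraries. At the foot of the order, Scn9a was at 0.119 to 0.212 and Scn4b at 0.0239 to 0.215 CPM per kb, ranges that overlapped. With the longest transcript as the length, the 8 genes kept this order of median levels. Scn2b then exceeded Scn1a in only 4 of the 6 libraries, so the order of that pair depends on the length used.

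**Figure D1:**
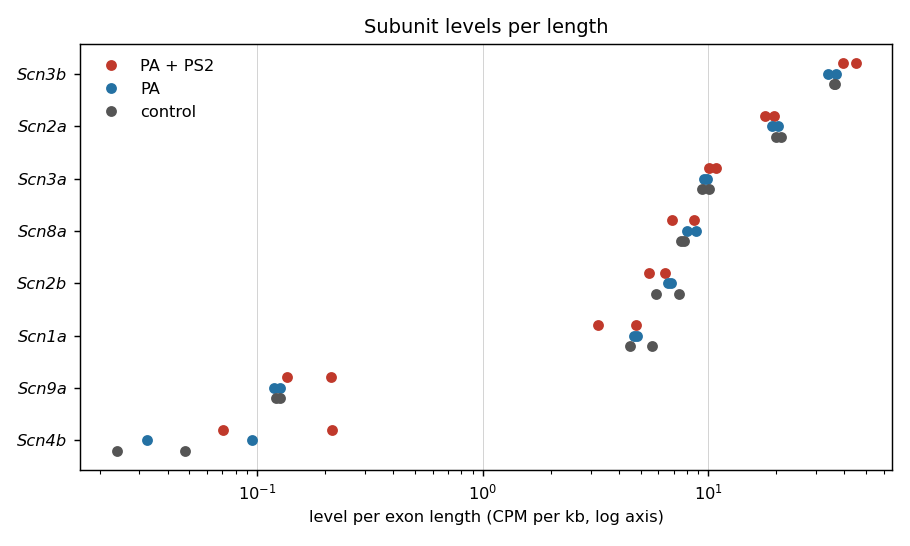
Levels of the 8 subunit genes in CPM per kb of summed exon length, on a log axis, with 1 point for each of the 6 libraries and the groups marked as in the legend. Scn3b (34.0 to 44.9) and Scn2a (17.9 to 21.0) stand highest, and Scn9a (0.119 to 0.212) and Scn4b (0.0239 to 0.215) lowest.

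No sodium channel gene passed edgeR's test over the 6 libraries in any comparison. With n = 2 libraries in a group, the spread of the repeats is only loosely known. In CPM, both PA + PS2 libraries lay above the other 4 for the alpha subunits Scn3a and Scn9a and the beta subunit Scn3b. Scn4b, at a trace level, was higher with PA + PS2 within each repeat but overlapped the PA libraries. Scn1a was lowest in 1 PA + PS2 library, that of repeat 2. Over the 6 libraries Scn1a spanned 0.80 on the log2 scale, Scn8a 0.36, Scn2a 0.23 and Scn3a 0.20. In bulk libraries fewer cells of a type and less RNA per cell cannot be told apart. CPM means are given with the SD over n = 2 libraries and log2 fold changes with the standard error of edgeR's quasi-likelihood fit over all 6 libraries.

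Scn2a, the main alpha subunit of early axons, was at 249 and 228 CPM with PA + PS2 (repeats 1 and 2), 243 and 259 CPM with PA, and 255 and 267 CPM in the control. The PA + PS2 libraries both lay below the 2 control libraries, while the PA libraries overlapped with each of the other groups. The log2 fold change of PA + PS2 against control was -0.13 ± 0.08 (edgeR adjusted p = 0.863), made of -0.03 in repeat 1 and -0.23 in repeat 2. Against PA it was -0.07 ± 0.08 (edgeR adjusted p = 0.942), with 0.04 in repeat 1 and -0.19 in repeat 2. PA against control gave -0.06 ± 0.08 (edgeR adjusted p = 1.00).

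Scn3a, the embryonic-type alpha subunit, was at 134 and 126 CPM with PA + PS2, 123 and 119 CPM with PA, and 117 and 125 CPM in the control. The highest 2 of the 6 were the PA + PS2 libraries, but repeat 2 was above the control of the same repeat by only 0.01 on the log2 scale, against 0.20 in repeat 1. The fitted log2 fold change was 0.10 ± 0.08 against control (edgeR adjusted p = 0.926) and 0.10 ± 0.08 against PA (edgeR adjusted p = 0.888). PA and control did not part (log2 fold change 0.00 ± 0.08, edgeR adjusted p = 1.00).

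Scn1a, mutated in human epilepsies, was at 53.4 and 36.0 CPM with PA + PS2, 52.2 and 53.5 CPM with PA, and 62.7 and 50.2 CPM in the control. The PA + PS2 library of repeat 2 was the lowest of the 6 by a wide margin, and that of repeat 1 lay inside the range of both other groups, so the groups overlapped. Means were 44.7 ± 12.3 CPM with PA + PS2, 52.8 ± 0.955 CPM with PA and 56.4 ± 8.85 CPM in the control (SD, n = 2 each). The log2 fold change against control was -0.34 ± 0.19 (edgeR adjusted p = 0.857), with -0.23 in repeat 1 and -0.48 in repeat 2. With the repeat number in the model as a block it was -0.35 ± 0.12 (edgeR adjusted p = 0.288). Against PA the 2 repeats went different ways, 0.03 in repeat 1 and -0.57 in repeat 2, around a fitted value of -0.24 ± 0.19 (edgeR adjusted p = 0.912).

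Scn8a, whose channel takes over at initial segments and nodes of mature axons, was at 136 and 108 CPM with PA + PS2, 126 and 138 CPM with PA, and 123 and 119 CPM in the control. The PA + PS2 libraries spanned the control, 1 above and 1 below, and both PA libraries lay above both control libraries. Against control the log2 fold change was 0.01 ± 0.11 with PA + PS2 (edgeR adjusted p = 0.999), with 0.14 in repeat 1 and -0.13 in repeat 2, and 0.13 ± 0.11 with PA (edgeR adjusted p = 1.00). PA + PS2 against PA gave -0.12 ± 0.11 (edgeR adjusted p = 0.933).

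Scn9a was near the limit of useful counting, with 85 and 53 counts with PA + PS2, 50 and 48 with PA, and 52 and 54 in the control. In CPM these were 2.71 and 1.72 with PA + PS2, 1.61 and 1.51 with PA, and 1.55 and 1.61 in the control. The PA + PS2 libraries lay above the other 4, repeat 2 by little and repeat 1 by more. The log2 fold change was 0.49 ± 0.36 against control (edgeR adjusted p = 0.920) and 0.50 ± 0.36 against PA (edgeR adjusted p = 0.877). PA against control gave -0.01 ± 0.36 (edgeR adjusted p = 1.00).

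Scn3b, a beta subunit that binds alpha subunits without a covalent bond and is abundant in the developing rodent brain, was at 216 and 245 CPM with PA + PS2, 201 and 186 CPM with PA, and 198 and 197 CPM in the control. Both PA + PS2 libraries stood above the other 4, and the 2 control libraries were nearly equal. Means were 231 ± 20.3 CPM with PA + PS2, 193 ± 11.0 CPM with PA and 198 ± 1.29 CPM in the control (SD, n = 2 each). The log2 fold change was 0.22 ± 0.08 against control (edgeR adjusted p = 0.675), with 0.12 in repeat 1 and 0.32 in repeat 2, and 0.25 ± 0.08 against PA (edgeR adjusted p = 0.506), with 0.10 and 0.40 in those repeats. With the repeat block the adjusted p of edgeR was 0.252 against control and 0.154 against PA, at nearly the same fold changes. PA against control gave -0.03 ± 0.08 (edgeR adjusted p = 1.00).

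Scn4b, the beta subunit tied to resurgent sodium current in cerebellar Purkinje neurons, was detected only as a trace. It had 11 and 33 counts with PA + PS2, 5 and 15 with PA, and 4 and 8 in the control. In CPM these were 0.350 and 1.07 with PA + PS2, 0.161 and 0.473 with PA, and 0.119 and 0.238 in the control. With PA + PS2 both libraries exceeded both control libraries, and repeat 2 was higher than repeat 1 in every group. PA + PS2 and PA overlapped. The log2 fold change against control was 1.97 ± 0.85 (edgeR adjusted p = 0.725), with 1.56 in repeat 1 and 2.17 in repeat 2, and 1.90 ± 0.70 with the repeat block (edgeR adjusted p = 0.288). Against PA it was 1.15 ± 0.80 (edgeR adjusted p = 0.871), and PA against control gave 0.82 ± 0.88 (edgeR adjusted p = 1.00). The filter on low values was met by 3 libraries, both of PA + PS2 and PA repeat 2, so Scn4b entered the tests through the group in which it is high, whereas the other 7 genes met the filter in all 6 libraries.

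Scn2b, the neighbour of Scn4b on chromosome 9, whose product like that of Scn4b links to alpha subunits by a disulfide bond, was at 29.7 and 25.4 CPM with PA + PS2, 31.9 and 30.8 CPM with PA, and 34.3 and 27.2 CPM in the control. The PA + PS2 libraries lay below both PA libraries but overlapped with the control. The log2 fold change was -0.16 ± 0.14 against control (edgeR adjusted p = 0.955) and -0.18 ± 0.14 against PA (edgeR adjusted p = 0.899). PA against control gave 0.03 ± 0.14 (edgeR adjusted p = 1.00).

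**Figure D2:**
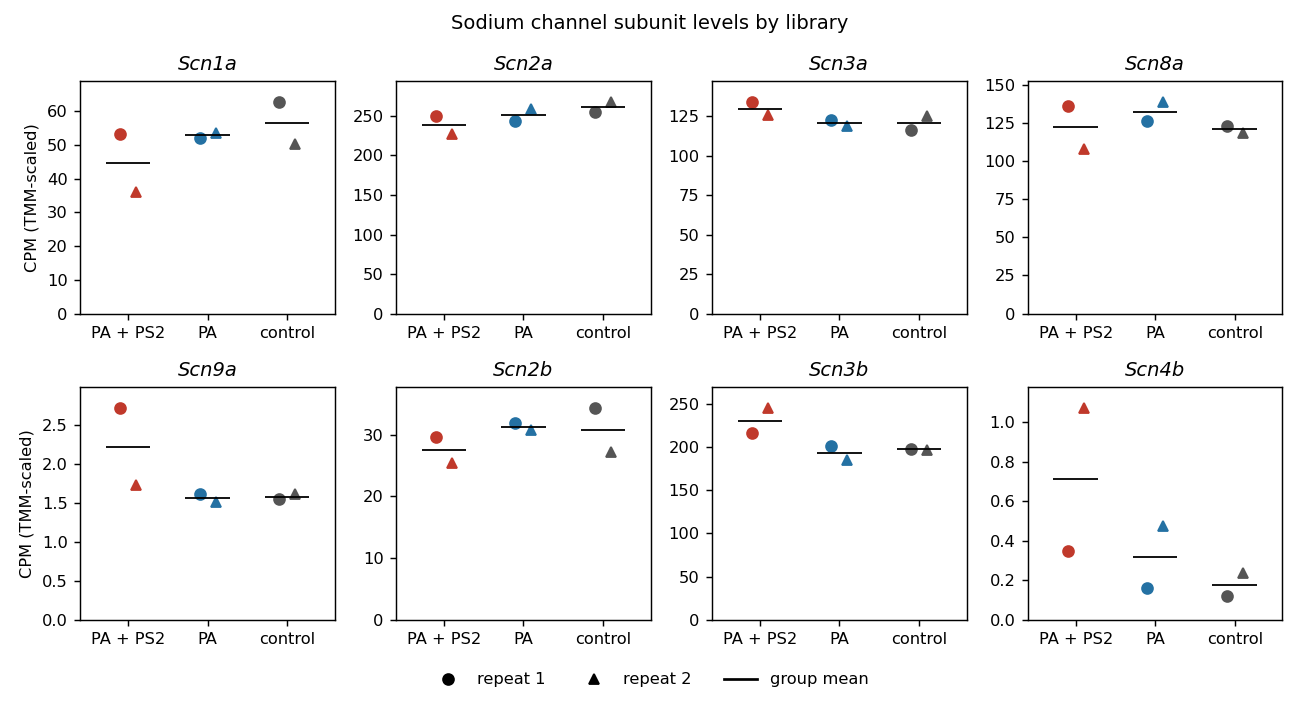
CPM of each of the 8 subunit genes in every library, with PA + PS2 left, PA in the middle and control right. Circles are repeat 1, triangles repeat 2 and black lines the group means. Scn3b stands at 216 and 245 CPM with PA + PS2 against 198 and 197 CPM in the control, and Scn1a is lowest, at 36.0 CPM, in PA + PS2 repeat 2.

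Counted over the family, edgeR's quasi-likelihood test passed 0 of 8 genes for PA + PS2 against control, and 2 (Scn3b and Scn4b) had an unadjusted p under 0.05. Of all 17299 genes tested, 0% passed and 1178 had an unadjusted p under 0.05. DESeq2 called 0 of the 8 genes and 0.751% of all genes, with no adjusted p given for Scn4b. In DESeq2 an unadjusted p under 0.05 was held by Scn3b alone of the 8, and by 1096 of all genes. Limma-voom called 0 of the 8 and 0% of all genes, again with Scn3b alone of the 8 at that unadjusted p, beside 1123 of all genes. The repeat block called 0 of the 8 and 0.699% of all genes. With it 3 of the 8 (Scn1a, Scn3b and Scn4b) had an unadjusted p under 0.05, as did 1985 of all 17299 genes. The median log2 fold change of the 8 genes was 0.06, and that of all genes 0.01. In 4 of the 8 genes (Scn3a, Scn9a, Scn3b and Scn4b) both PA + PS2 libraries lay above both control libraries, a pattern held by 16.6% of all genes. Without Scn4b, which entered through that group, 3 of 7 genes did so. Scn2a alone was lower in that way, a pattern held by 17.1% of all genes. Within both repeats the same 4 genes were higher with PA + PS2 than in the control (29.7% of all genes) and 3 were lower, Scn1a, Scn2a and Scn2b (28% of all genes). The block in DESeq2 called 0 of the 8 and 1.61% of all genes.

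Between PA + PS2 and PA, edgeR passed 0 of 8 genes and 0% of all genes, DESeq2 0 of 8 and 1.16% of all genes, the repeat block 0 of 8 and 1.52% of all genes, and the block in DESeq2 0 of 8 and 2.1% of all genes. Scn3b was the 1 member with an unadjusted p under 0.05, in edgeR, in DESeq2 and in limma-voom, which also called 0 of 8. Of all 17299 genes, 1332, 1205 and 1255 had such a p in those tests. In the libraries themselves, both of PA + PS2 were above both of PA in 3 of 8 genes (Scn3a, Scn9a and Scn3b; 16.7% of all genes) and below them in 1 (Scn2b; 18.4% of all genes). Within both repeats 4 genes were higher with PA + PS2 than with PA, those 3 and Scn4b (26.8% of all genes), and Scn2b was lower (27.7% of all genes). Between PA and control, edgeR, DESeq2, limma-voom and the repeat block each called 0 of 8, with 0 at an unadjusted p under 0.05, and edgeR called 0% of all genes with 103 at an unadjusted p under 0.05. With DESeq2 and the block together the counts were 0 of 8 and 0.00578% of all genes. Both PA libraries exceeded both control libraries in Scn8a alone (12.1% of all genes), and in no member were both lower (9.69% of all genes). Within both repeats Scn8a and Scn4b were higher with PA (24.5% of all genes) and Scn2a was lower (20.5% of all genes). The 3 comparisons share libraries, so they are not independent of each other.

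With the repeat block, the fold changes of Scn1a and Scn3b depended on which library was left out. Between PA + PS2 and control, Scn1a had log2 fold changes of -0.58, -0.35 and -0.36 with the block. These were without PA + PS2 repeat 1, PA repeat 1 and PA repeat 2. Scn3b was at 0.34 without PA + PS2 repeat 1 and at 0.22 without PA repeat 1. Against PA, leaving out PA + PS2 repeat 1 or PA repeat 1 gave -0.48 and -0.50 for Scn1a. For Scn3b it gave 0.38 and 0.36. Without PA + PS2 repeat 2, the block gave Scn1a a log2 fold change of -0.15 against control and -0.0601 against PA. For Scn3b these were 0.0971 and 0.13. Without that library and without the block, Scn1a was at -0.0822 against control and 0.0143 against PA, and Scn3b at 0.13 and 0.16. Each of these fits leaves 1 group with a lone library, which is assumed to vary like the others, so only fold changes are given here.

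**Figure D3:**
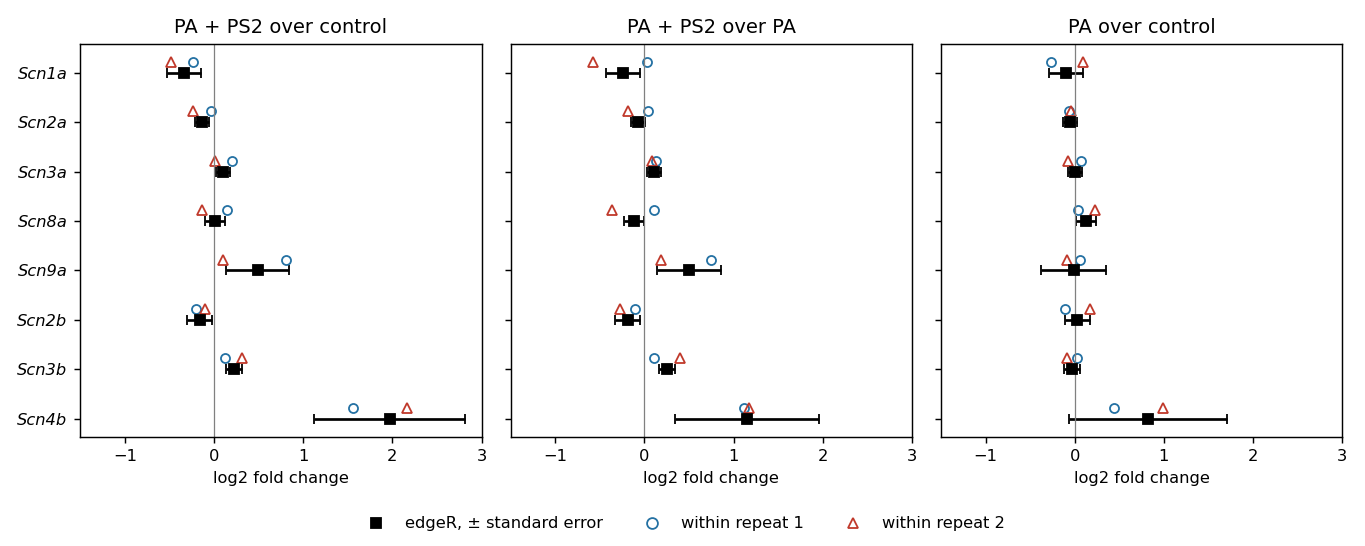
Log2 fold changes of the 8 subunit genes in the 3 comparisons, shown as black squares with bars of 1 standard error from edgeR's fit over all 6 libraries, and open circles and triangles for the differences within repeat 1 and repeat 2. The bar of Scn4b is wide, 0.85 for PA + PS2 against control, beside 0.08 for Scn2a.

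The alpha isoform mix asks how much of the pore-forming message is of the embryonic type. Each alpha gene's level per kb was expressed as a share of the sum over the 5 alpha genes of its library, a ratio that library size cannot move. Scn2a held the largest single share, at 44.6% and 46.8% with PA + PS2, 45.8% and 46.7% with PA, and 46.6% and 48.6% in the control. Scn3a was next, at 24.5% and 26.4% with PA + PS2, 23.6% and 21.9% with PA, and 21.8% and 23.2% in the control. The Scn3a share of both PA + PS2 libraries was above that of the other 4. Its mean was 25.4% ± 1.39 with PA + PS2, 22.7% ± 1.20 with PA and 22.5% ± 1.02 in the control (SD, n = 2 each). PA + PS2 exceeded control by 2.90 percentage points (2.65 in repeat 1 and 3.16 in repeat 2; two-sided exact permutation p = 0.333) and PA by 2.71 points (0.881 and 4.53; two-sided exact permutation p = 0.333). With 2 libraries against 2, 0.333 is the smallest p that this test can give, so these values are descriptions. PA exceeded control by 0.197 points, with 1.77 in repeat 1 and -1.37 in repeat 2 (two-sided exact permutation p = 0.667).

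The adult-type members of the mix differed in which libraries were low. Scn1a made up 10.9% and 8.46% of the alpha level with PA + PS2, 11.2% and 11.0% with PA, and 13.1% and 10.4% in the control. Its share was lowest in PA + PS2 repeat 2, while PA + PS2 repeat 1 lay between the control libraries. Scn8a made up 19.6% and 18.0% with PA + PS2, 19.2% and 20.2% with PA, and 18.2% and 17.4% in the control, so that PA lay above control and PA + PS2 overlapped with both. Scn9a stayed at 0.272% to 0.482%.

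As a single measure of embryonic against adult type, the log2 ratio of Scn3a to the sum of Scn1a and Scn8a, per kb, was -0.32 and 0.00 with PA + PS2, -0.37 and -0.51 with PA, and -0.52 and -0.26 in the control. PA + PS2 was above both PA libraries but, in repeat 1, not above the control of repeat 2, so PA + PS2 and control overlapped. PA + PS2 exceeded control by 0.23 on the log2 scale, with 0.20 in repeat 1 and 0.26 in repeat 2 (two-sided exact permutation p = 0.667), and PA by 0.28, with 0.05 and 0.51 (two-sided exact permutation p = 0.333, the smallest possible). PA against control was -0.05, with 0.16 and -0.25 in the 2 repeats (two-sided exact permutation p = 1.00). The sum of the 5 alpha genes was 575 and 499 CPM with PA + PS2, 546 and 571 CPM with PA, and 559 and 563 CPM in the control, so PA + PS2 repeat 2 held the least alpha message and PA + PS2 repeat 1 the most.

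**Figure D4:**
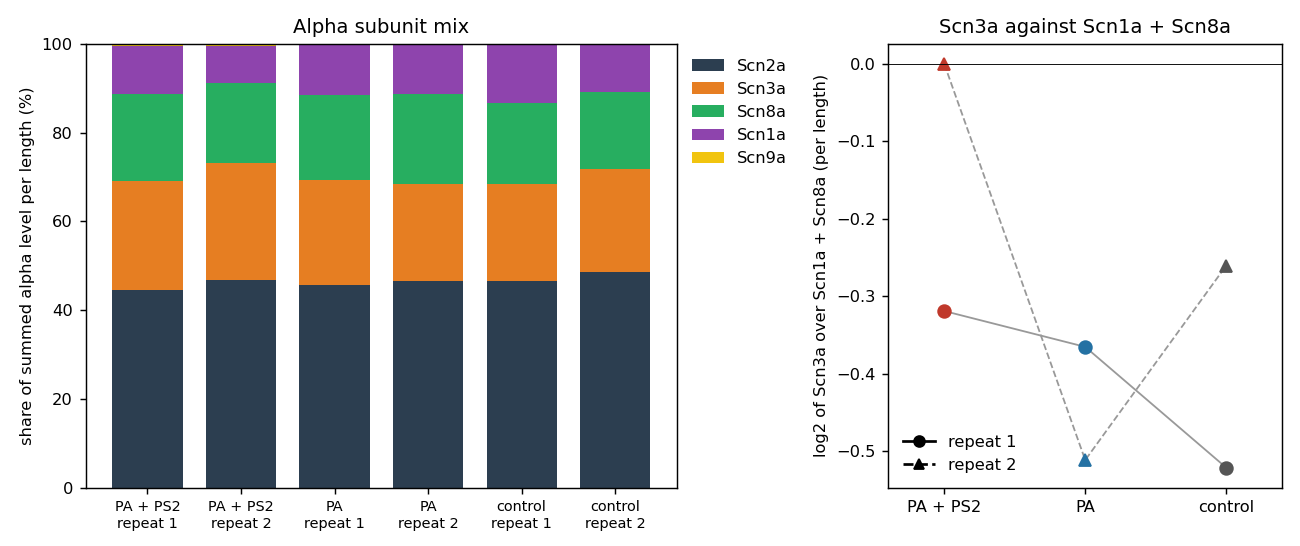
On the left, share of the alpha subunit level per kb taken by each of the 5 alpha genes in every library (stacked bars, percent), PA + PS2 left, PA in the middle and control right. Scn2a takes 44.6% to 48.6% in all 6 libraries, and Scn3a 24.5% and 26.4% with PA + PS2 against 21.8% and 23.2% in the control. On the right, log2 ratio of Scn3a to the sum of Scn1a and Scn8a per kb, with lines joining libraries of 1 repeat, at -0.32 and 0.00 with PA + PS2 against -0.52 and -0.26 in the control.

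Among the 3 beta subunits, Scn3b took 85.99% and 88.8% of the summed level per kb with PA + PS2, 84.3% and 83.5% with PA, and 83.1% and 85.93% in the control. The 2 PA + PS2 libraries were the highest, repeat 1 only just above control repeat 2. Scn2b took 13.9% and 10.8% with PA + PS2, 15.7% and 16.2% with PA, and 16.8% and 14.0% in the control, and Scn4b at most 0.425% in any library.

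Beside the family, Nalcn, which encodes a sodium leak channel that sets resting excitability, was at 34.0 and 33.0 CPM with PA + PS2, 39.4 and 41.4 CPM with PA, and 38.9 and 42.7 CPM in the control. Its PA + PS2 libraries lay below the other 4, at a log2 fold change of -0.28 ± 0.10 against control (edgeR adjusted p = 0.666, and 0.232 with the repeat block). The muscle gene Scn4a, the atypical glial and peripheral gene Scn7a and the sensory neuron genes Scn10a and Scn11a had 0 to 8 counts in any library.

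Proteins that bind, anchor or modify sodium channels were taken as a list of 23 genes, of which 22 were tested. In each comparison 0 passed, in edgeR and with the repeat block, and the medians of their log2 fold changes were -0.01 for PA + PS2 against control, -0.02 for PA + PS2 against PA and 0.00 for PA against control, against 0.01, 0.00 and 0.01 over all genes. Fyn, a kinase that phosphorylates channel subunits, was at 302 and 339 CPM with PA + PS2, 285 and 284 CPM with PA, and 264 and 295 CPM in the control (log2 fold change of PA + PS2 against control 0.20 ± 0.09, edgeR adjusted p = 0.735). S100a10, a channel-trafficking partner, had a log2 fold change of -0.48 ± 0.24 against control (edgeR adjusted p = 0.781), with -0.04 in repeat 1 and -0.93 in repeat 2. Values at the ends of this list also came from Fgf11 (0.19 ± 0.16 for PA + PS2 against PA), and, for PA against control, Cntn1 (0.05 ± 0.09) and Fgf14 (-0.13 ± 0.13).

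Of 12 genes for proteins that splice, silence or repress neuronal transcripts, sodium channel messages among them, 0 passed in any comparison, in edgeR or with the repeat block. Their median log2 fold change was 0.08 for PA + PS2 against control, 0.07 for PA + PS2 against PA and 0.00 for PA against control. Rbfox1, a neuronal splicing factor, was at 162 and 179 CPM with PA + PS2 and had log2 fold changes of 0.22 ± 0.09 against control and 0.24 ± 0.09 against PA (edgeR adjusted p = 0.720 and 0.590). Its differences had the same sign in the 2 repeats. Mbnl2, a muscleblind splicing factor, was at 38.3 and 28.0 CPM with PA + PS2 and had log2 fold changes of -0.28 ± 0.15 against control and -0.35 ± 0.15 against PA (edgeR adjusted p = 0.811 and 0.630). Rest, the repressor of neuronal genes including Scn2a, had -0.18 ± 0.18 for PA against control (edgeR adjusted p = 1.00) and 0.18 ± 0.18 for PA + PS2 against PA (edgeR adjusted p = 0.939), Nova1 0.18 ± 0.13 for PA against control, and Celf4 -0.01 ± 0.07 for PA + PS2 against control.

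The genes whose pattern over the 6 libraries was most like that of a main alpha gene were found by the smallest root mean square difference of centred log2 CPM among 10776 genes. For Scn1a these were Mroh1 (0.03), C2cd2 (0.03) and Mir22hg (0.04), where Scn1a itself spans 0.80 on that scale. For Scn2a they were Arl4a, Capza2 and Tagln3 (0.01 to 0.02, with Scn2a spanning 0.23), and for Scn3a Pip4k2b, Kif21b and Fry (0.02 each, with Scn3a spanning 0.20). For Scn8a they were Pcdhga2, Agfg2 and Unc80 (0.03 each, with Scn8a spanning 0.36). A search for the closest of 10776 genes over 6 libraries picks small differences by design. Whether these genes are linked to the alpha genes was not tested.

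Marker lists of several cell types differed between the groups in which the sodium channel genes were measured. The 10 excitatory neuron markers summed to 1848 and 2008 CPM (lowest and highest library) with PA + PS2, 1681 and 1744 CPM with PA, and 1609 and 1707 CPM in the control. The 13 markers of GABAergic neurons summed to 1113 and 1191 CPM with PA + PS2, 1130 and 1444 CPM with PA, and 1197 and 1296 CPM in the control, and Pvalb, which marks the interneurons where Scn1a is prominent, had 0 to 2 counts in any library. With PA + PS2, excitatory markers were thus higher than in every other library, while GABAergic markers overlapped with PA and lay below the control. The 8 markers of oligodendrocyte precursors, cells that also carry sodium channels, summed to 21.5 and 28.7 CPM with PA + PS2, 53.7 and 149.5 CPM with PA, and 58.6 and 109 CPM in the control. The 9 oligodendrocyte markers summed to 74.7 and 108 CPM with PA + PS2, 48.6 and 58.4 CPM with PA, and 45.0 and 45.2 CPM in the control. With the repeat block, though not without it, the precursor marker Cspg4 fell with PA + PS2 against control and the myelin gene Cldn11 rose. Cspg4 was at 0.892 and 0.941 CPM with PA + PS2 against 3.78 and 6.10 CPM in the control. Astrocyte markers (11 genes) were at 219 to 266 CPM with PA + PS2, 256 to 474 CPM with PA and 236 to 327 CPM in the control, and progenitor markers (8 genes) at 213 to 235 CPM with PA + PS2, 320 to 473 CPM with PA and 277 to 432 CPM in the control. Vascular and fibroblast markers (11 genes) were at 43.1 to 103 CPM with PA + PS2, 101 to 178 CPM with PA and 142 to 159 CPM in the control. Microglia markers (8 genes) stayed at 2.96 to 5.27 CPM in all libraries. No marker was at 0 in all libraries, and the part of these cell types in the sodium channel values was not tested.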

How the data were processed

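The files hold raw counts, 1 library to a file with 1 row for each Ensembl gene and 0 rows of unassigned reads, as deposited by the authors. Tools named in the submitters' processing notes are HTSeq 2.0.2, STAR 2.7.5, cutadapt 4.2 and DESeq2 1.14.1, with mm10 as build. What each did, the annotation release, strand handling and read length are not stated in those notes. Per the labels' protocols an RNeasy micro kit and a TruSeq Total RNA kit were used. The molecule label, however, reads polyA RNA. Symbols and coordinates came from GENCODE M21 (GRCm38), which placed 54165 of 54232 genes.

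The test was that of edgeR 4.0.16, run in R 4.3.3 on the counts (TMM scaling, filterByExpr with a minimum count of 10, robust quasi-likelihood test, 1 model over all 6 libraries), which left 17299 genes. The threshold was a Benjamini-Hochberg adjusted p under 0.05 over all of them. Other settings were library totals alone, RLE size factors, a filter of 50 counts in 2 libraries or none, limma-voom (limma 3.58.1), DESeq2 1.42.0, fits on only 2 groups, a block for the repeat number, and fits without 1 library. Shares and ratios of subunits were compared by exact permutation tests.

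The members and gene lists were chosen with earlier results of these data known. Named genes were all 8 members, other sodium channel genes, and of partners and transcript regulators any that passed plus the 2 highest and 2 lowest log2 fold changes in each comparison at a mean of at least 5 CPM. Likeness named 3 genes each for Scn1a, Scn2a, Scn3a and Scn8a, from genes of at least 5 CPM. Some genes that this rule names are not reported here.

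Pairing of libraries by repeat number was read from the data. The repeat 1 minus repeat 2 differences of 2 groups correlated at 0.361 for PA + PS2 and control, 0.213 for PA + PS2 and PA, and 0.346 for PA and control. No label names a litter, day or batch that a number stands for. One T number is common to the repeat 1 library names, and the repeat 2 names differ in theirs. Replicates were further apart than counting noise allows (chi-square over its degrees of freedom 16.1 to 23.4). The coefficient of variation that edgeR estimated between libraries was 16.7%, or 9.57% once the block was in, which left 2 residual degrees of freedom in place of 3.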

Additional observations from a re-analysis of the deposited data

How the results depend on the processing

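Of 500 alternative values for the 8 genes' fold changes, 461 kept their direction and side of the threshold, 30 in 13 results turned direction, 9 passed the threshold and 0 lost it. Over all genes, PA + PS2 against control gave 425 calls without a filter, 130 with DESeq2, 121 with the replicate block and 279 with the replicate block in DESeq2, where edgeR without the block gave 0. PA + PS2 against PA gave 501, 200, 263 and 364 in those settings, and PA against control 2 without a filter and 1 with the replicate block in DESeq2. Leaving out a library, with or without the block, gave 0 to 942 calls for PA + PS2 against control, 0 to 1021 for PA + PS2 against PA and 0 to 35 for PA against control. Among the 8 genes it gave 0 to 2 calls for PA + PS2 against control and 0 to 2 for PA + PS2 against PA, all with the replicate block and all of Scn1a or Scn3b. The block alone changed no call among the 8 genes. The other scalings, filters, limma-voom and the fits of only 2 groups also called none of them. The cause of these shifts was not tested.

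With 1 library left out, the log2 fold change of PA + PS2 against control ranged from -0.65 to -0.0822 for Scn1a, 0.0971 to 0.34 for Scn3b, -0.19 to 0.19 for Scn8a and -0.32 to 0.0174 for Scn2b. Against PA it ranged from -0.55 to 0.0143 for Scn1a, 0.13 to 0.38 for Scn3b, -0.18 to 0.0303 for Scn2a and -0.31 to 0.0604 for Scn8a. For PA against control it ranged from -0.34 to 0.15 for Scn1a, -0.13 to 0.0007 for Scn2a, -0.0872 to 0.0772 for Scn3a, -0.0446 to 0.29 for Scn8a, -0.23 to 0.20 for Scn9a, -0.14 to 0.20 for Scn2b, -0.13 to 0.0586 for Scn3b and -0.15 to 1.38 for Scn4b. Scn3a for PA against control also turned to 0.003 with library totals alone. In the 13 results that turned, the direction is not settled. The mix measures moved by less than the SD between replicates under another length, no length and a pseudocount. The mean of the within-repeat differences equals the difference of the group means by arithmetic, so it could not move. With 1 library left out, the Scn3a share difference ranged from 1.92 to 3.89 points for PA + PS2 against control, 1.73 to 3.69 for PA + PS2 against PA and -0.65 to 1.04 for PA against control. The log2 ratio of Scn3a to Scn1a plus Scn8a ranged from 0.0717 to 0.39, 0.12 to 0.44 and -0.18 to 0.0827 in those comparisons. Scn9a and Scn4b, with 85 counts or fewer in a library, are limited by depth.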
